A study of Drosophila melanogaster with 4 samples.

Results

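The X chromosome of Drosophila melanogaster carried 1482 of the 6891 regions enriched for HP1c in whole larvae of the third instar. These regions are the rows that the authors' combined list, made for the set of replicates, places on X, without rows named as depleted, of which X had none. The list of ChIP replicate 1 placed 1202 of its 5586 regions on X, and that of ChIP replicate 2 placed 1284 of its 5946. The share of X was thus 21.5%, 21.6% and 21.5% of the regions in replicate 1, replicate 2 and the combined list. X makes up 18.6% of the sequence of the 5 main arms and chromosome 4. The shares of regions also count regions in heterochromatin and unplaced scaffolds, so they and the share of sequence have unlike bases.

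HP1c is one of the heterochromatin protein 1 family, chromodomain proteins that bind methylated histone H3 and pair with each other and with partners through a chromoshadow domain. Unlike HP1a, which coats pericentric heterochromatin, HP1c is known mainly from euchromatin, where it acts with the zinc finger proteins WOC and ROW and is found at transcribed genes. The X chromosome is present as a single copy in male flies, and the labels do not give the sex of the larvae.

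Chromatin immunoprecipitation and sequencing (ChIP-seq) was done on 2 HP1c ChIP libraries, with 2 libraries of input DNA, all from wild-type animals of the Oregon-R strain. HP1c was precipitated with rabbit polyclonal antibodies, purified by affinity, that had been raised against a part of the protein. Larvae were taken whole, so the regions stand for a mixture of tissues, and fewer cells with HP1c at a place cannot be told apart from less HP1c per cell. Each list gives a position and 1 score per region, the authors' own value, whose scale the sources used here do not give. Read depth is unknown. X was compared with the autosomal arms 2L, 3L and 3R, and positions are those of FlyBase release 5. The remaining main autosomal arm, 2R, was not compared, and autosomal below refers to the 3 compared arms only. The arm was the unit of the test. With X against 3 arms an exact permutation test cannot give a two-sided p below 0.25, so the values in each replicate are given beside every ratio.

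HP1c regions covered more of X than of any of the 3 autosomal arms compared, 2L, 3L and 3R. They took 14.3% of X in replicate 1 and 16.0% in replicate 2, a mean of 15.2% ± 1.15 (SD, n = 2), against 11.4% ± 0.824 of 2L, 3L and 3R together. The values on the arms in replicate 1 were 10.5% on 2L, 11.3% on 3L and 10.6% on 3R. In replicate 2 they were 11.8% on 2L, 12.2% on 3L and 11.9% on 3R. Every X value lay above every arm value, also when the X value of one replicate is set beside the arm values of the other. X exceeded the arms 1.33-fold in each replicate (1.33 ± 0.0048, SD, n = 2; exact permutation test over the 4 arms, two-sided p = 0.25).

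Most of the difference lay in the number of regions and a smaller part in their width. X held 53.6 and 57.3 regions per Mb in replicates 1 and 2, against 42.4 and 45.3 over the 3 arms, a ratio of 1.26 in both replicates (exact permutation p = 0.25). The mean width on X was 2733 bp ± 80.0, against 2595 bp ± 66.3 on the arms (SD, n = 2), 1.05 times as wide (exact permutation p = 0.25). The median widths were close, at 2279 bp on X and 2266.5 bp on the arms in replicate 1 and 2324.5 bp on X and 2304 bp on the arms in replicate 2. The typical X region was thus about as wide as the typical autosomal region, and the larger mean came from the wide end of the distribution.

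**Figure D1:**
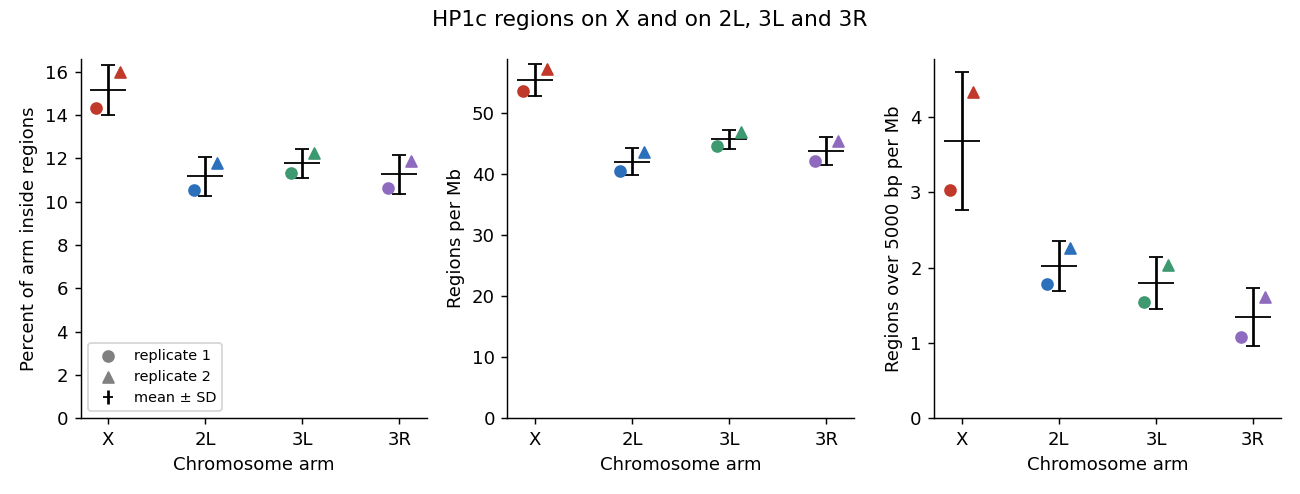
Percent of each arm inside HP1c regions, regions per Mb and regions wider than 5000 bp per Mb, on X, 2L, 3L and 3R. Circles are replicate 1, triangles replicate 2, and bars the mean ± SD of the 2. In all 3 panels X lies above the 3 autosomal arms shown, with 15.2% ± 1.15 of X covered.

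Wide regions were the width class in which X stood farthest from 2L, 3L and 3R. X had 68 regions over 5000 bp in replicate 1, which is 5.66% of its regions, and 97 in replicate 2, which is 7.55%. Over all sequences such regions made up 4.56% of the list of replicate 1 and 5.68% of that of replicate 2. Per Mb there were 3.03 on X and 1.44 on the 3 arms in replicate 1, and 4.33 on X and 1.95 on the arms in replicate 2. The ratio was 2.16 ± 0.086 (SD, n = 2; exact permutation p = 0.25), and X lay above each of the 3 arms in both replicates. Regions from 2000 to 3000 bp, the commonest class, were only 1.11 and 1.14 times as dense on X as on the arms in replicates 1 and 2. Those of up to 2000 bp were 1.34 and 1.31 times as dense on X. The excess was therefore present in every width class that held over 10 X regions, with its lowest values in the commonest one.

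In the combined list 108 X regions, or 7.29%, were wider than 5000 bp, against 5.94% over all sequences. All 108 overlapped a region of both replicates, and their median score was 2.10. Of combined regions of any width that scored from about 1.72 up, 99.7% on X and 99.2% on the 3 arms overlapped both. The share for wide regions of the arms was not computed. The 108 held 17.7% of the bases in X regions, whereas wide regions held 11.8% of such bases on the 3 arms. They were spread over 22 of the 23 windows of 1 Mb along X, with 10 each at 13 to 14 Mb and 17 to 18 Mb, 9 at 6 to 7 Mb and none in the first Mb.

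The 5 widest combined regions on X among those in both replicates measured 12095 to 15469 bp. The widest, at 7588910 to 7604378, had a score of 2.10 and ranked 1171 in the list. It lay over 2 regions of each replicate, the stronger of which was 8417 bp wide in replicate 1 and 8450 bp in replicate 2, so neither replicate listed it as a single region. The region at 8782128 to 8796622 was found whole, with a width of 14495 bp in the combined list, 14273 bp in replicate 1 and 14535 bp in replicate 2. Its score was 2.14 in the combined list, 2.05 in replicate 1 and 2.24 in replicate 2. Of the 5, 2 others were also single regions in both replicates. These were 17183804 to 17197486, with a score of 1.32, and 4823238 to 4835332, with a score of 2.33. The last, at 6745692 to 6758508 with a score of 2.14, was split into 3 regions in replicate 1 and 2 in replicate 2. None of the 5 was among the strongest regions, as their ranks in the combined list ran from 928 to 2319.

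Wider X regions scored higher over the full range of widths, as on the arms. Spearman's rho of score and width was 0.79 on X in each of the 3 lists. On the 3 arms together it was 0.78 in replicate 1 and 0.77 in replicate 2 and the combined list. Within classes of width on X the value differed by class. Each class holds only a part of the widths, and the classes were not computed on the arms. Across the 635 combined X regions from 2000 to 3000 bp, Spearman's rho was 0.66. Across the 396 wider than 3000 bp it was 0.24, and across the 451 of up to 2000 bp it was -0.18. In replicates 1 and 2 the values were 0.13 and 0.28 up to 2000 bp, 0.67 and 0.70 from 2000 to 3000 bp, and 0.20 in both above 3000 bp. These are descriptions across regions of the same libraries. The negative sign of the narrow class appeared in the combined list and in neither replicate. That list reached down to 1001 bp, whereas the narrowest region of either replicate measured 1301 bp.

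**Figure D2:**
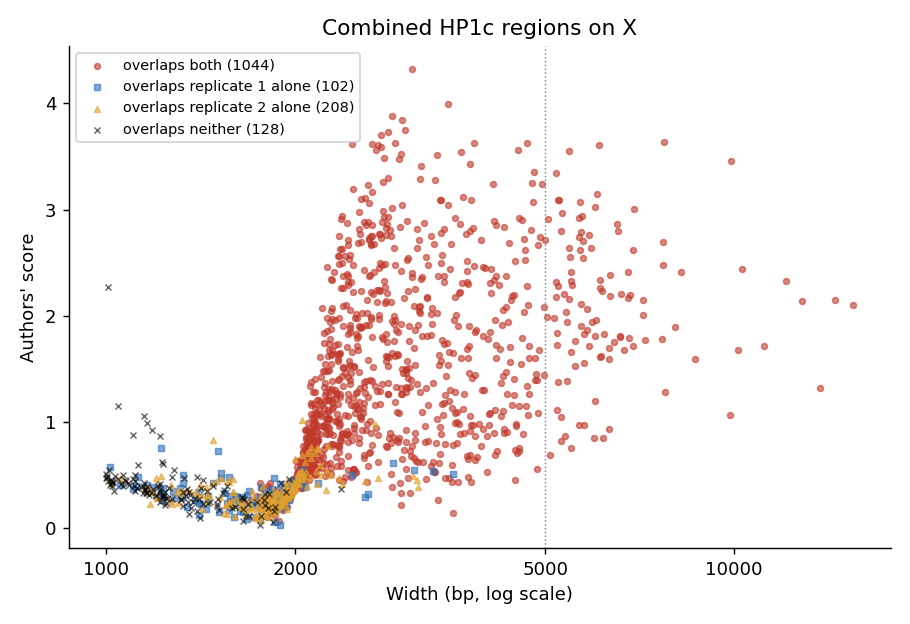
Score against width (log scale) of the 1482 combined HP1c regions on X, by overlap with the replicates; the dotted line marks 5000 bp. Scores climb steeply between 2000 and 3000 bp and scatter above that, and the 128 regions that overlap neither replicate (crosses) lie mostly at the narrow end, 1 of them at a score of 2.26.

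Coverage along X was uneven in the same way in both replicates. Over 23 windows of 1 Mb, the last of them shorter, mean coverage ran from 3.31% to 21.9%, with a median of 14.7%. The 76 windows of 2L, 3L and 3R ran from 3.34% to 20.2%, with a median of 11.3%. Of the X windows, 19 lay above the median of the autosomal windows and 4 lay above their highest value. The 2 replicates followed each other across the X windows (Pearson r = 0.99, Spearman rho = 0.98, n = 23 windows of the same 2 libraries), with replicate 2 higher in 22 of the 23. Coverage of an X window went with its number of combined regions (Pearson r = 0.94) more closely than with their mean width (r = 0.44). The windows of the 3 arms had the same order, with r = 0.95 and 0.12. Coverage is tied to both number and width by construction.

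The X window with the highest coverage was 13 to 14 Mb, with 21.8% in replicate 1 and 22.1% in replicate 2. It also had the most combined regions, 95. Next came 11 to 12 Mb, with 21.0% and 22.6% in replicates 1 and 2, and 6 to 7 Mb, with 20.1% and 22.3%. Differences between these 3 windows are within the spread of the replicates, whose SD was up to 1.53 percentage points. The window at 12 to 13 Mb, between the 2 densest, had 14.7% ± 0.731, the median of the X windows, and the one at 14 to 15 Mb had 11.4% ± 1.41 (SD, n = 2). From 15 to 18 Mb, 3 dense windows adjoined, with 19.6% ± 1.28, 17.9% ± 1.49 and 20.2% ± 1.22.

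The 3 X windows with the lowest coverage were all at the ends of the chromosome. The last, from 22 Mb to the end at 22.4 Mb, had 2.80% in replicate 1 and 3.82% in replicate 2, with 7 combined regions. The window from 21 to 22 Mb had 7.25% and 9.34% in replicates 1 and 2, and the first Mb had 7.97% and 10.7%. In the 2 Mb at the centromeric end of the sequence, coverage of X was 7.10% ± 1.01, against 16.0% ± 1.16 of the rest of X. This is a ratio of 0.44 ± 0.031 (SD, n = 2). The same ratio was 0.39 on 3L, but 0.99 on 2L and 1.27 on 3R. In the first Mb from the telomere, the ratio to the rest was 0.60 ± 0.084 on X and 0.72 on 3R, against 1.29 on 2L and 1.31 on 3L. Low ends were thus shared by X with some arms and not with others. Without these end parts, coverage of X was 1.42 times that of the arms in both replicates. Coverage was taken over the full length of each part, gaps in the assembly included.

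**Figure D3:**
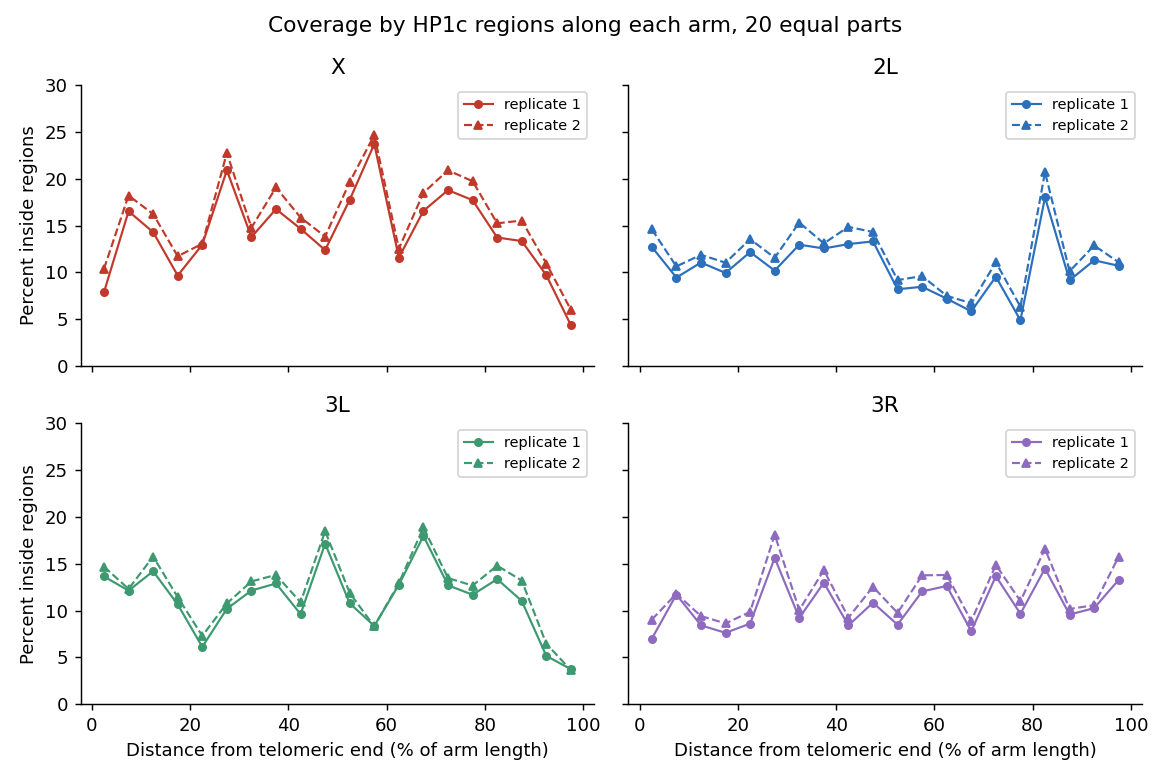
Percent inside HP1c regions in 20 equal parts of X, 2L, 3L and 3R, from the telomeric end (left) to the centromeric end (right), for replicate 1 (solid) and replicate 2 (dashed). The replicates run in parallel, X and 3L drop at the centromeric end, and the interior of X lies higher than most of the other arms.

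Neighbouring regions lay closer together on X. The median distance between the end of one combined region and the start of the next was 4337 bp on X, against 6479 bp on 2L, 6272 bp on 3L and 6283 bp on 3R. X over the 3 arms together was 0.70 in replicate 1, 0.66 in replicate 2 and 0.69 in the combined list. Distances under 2000 bp made up 29.4% of those on X and 23.9% of those on the arms, and distances over 50 kb made up 5.94% on X and 7.77% on the arms. Spacing is tied to the number of regions per Mb by construction. Distances and windows were not tested, since those of 1 arm are not independent.

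X also had more crowded and fewer empty windows of 100 kb, counts that are tied to the number of regions per Mb as well. The mean was 6.59 combined regions per window on X and 5.18 on the 3 arms. Of its 225 windows, 56 (24.9%) held at least 10 combined regions, against 84 of 756 (11.1%) on the 3 arms. There were 13 X windows (5.78%) with no region, against 72 (9.52%) on the arms. The fullest X windows were 13.2 to 13.3 Mb and 17.7 to 17.8 Mb, with 17 regions each, followed by 11.4 to 11.5 Mb with 16. In the first of these, regions took 41.2% of the sequence in replicate 1 and 42.6% in replicate 2. The next window to the left of it, 13.1 to 13.2 Mb, had 15 regions and a coverage of 46.0% and 47.0% in replicates 1 and 2. These 2 adjoining windows lie within the Mb that had the highest coverage of X.

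Long stretches of X had no HP1c region in any of the 3 lists. There were 23 over 100 kb, which together took 15.1% of X, against 23.6% of 2L, 20.4% of 3L and 22.4% of 3R. These shares too are tied to the number of regions per Mb. The longest measured 334 kb, from 21506579 to 21840783, in the sparse part at the centromeric end of the X sequence. The others of the 5 longest lay within the arm. They ran from 14142672 to 14374771 (232 kb), from 12144051 to 12341050 (197 kb), from 4984035 to 5179879 (196 kb) and from 11063916 to 11218479 (155 kb). Empty stretches could lie close to strong regions: the strongest region of X began 42268 bp to the right of the stretch that ended at 5179879.

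**Figure D4:**
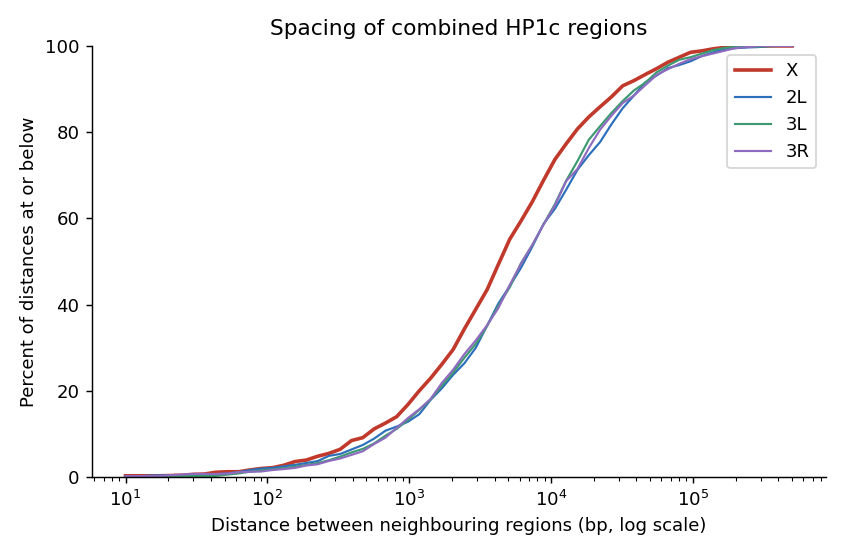
Cumulative percent of distances between neighbouring combined regions (log scale) on X, 2L, 3L and 3R. The X curve lies to the left of the other 3, which nearly coincide, with medians of 4337 bp on X and 6272 to 6479 bp on the arms.

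Scores of X regions lay above those of autosomal regions at the weak end of the lists and close to them at the strong end. The median score on X was 1.02 in replicate 1 and 1.17 in replicate 2, against 0.94 and 1.14 on the 3 arms. This is a ratio of 1.09 in replicate 1 and 1.03 in replicate 2, and the exact permutation test over the arms gave p = 0.5. At the 10th percentile the score was 0.45 on X and 0.36 on the arms in replicate 1, and 0.39 on X and 0.30 on the arms in replicate 2, a ratio of 1.26 ± 0.054 (SD, n = 2; exact permutation p = 0.25). At the 90th percentile the ratio was 1.01 in replicate 1 and 0.98 in replicate 2, so its direction differed between the replicates.

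Each list was then divided by score, over all sequences, into 5 classes of equal size, from class 1 with the weakest regions to class 5 with the strongest. In class 1 X held fewer regions per Mb than the arms, 7.00 against 9.25 in replicate 1 and 8.96 against 9.83 in replicate 2, and lay below each of the 3 arms in both. In class 2 X held more, 12.7 against 7.88 regions per Mb in replicate 1 and 13.3 against 8.51 in replicate 2. The ratio of X to the arms was 0.83 ± 0.11 in class 1 and 1.59 ± 0.032 in class 2 (SD, n = 2). It was 1.36 ± 0.042 in class 3, 1.26 ± 0.11 in class 4 and 1.34 ± 0.16 in class 5, and in classes 2 to 5 X lay above each arm in both replicates. The exact permutation test gave p = 0.25 in each class. In the combined list the ratio of class 1 was 0.96, with 10.9 regions per Mb on X, 11.2 on 2L, 11.9 on 3L and 10.8 on 3R, so X was not below every arm there.

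**Figure D5:**
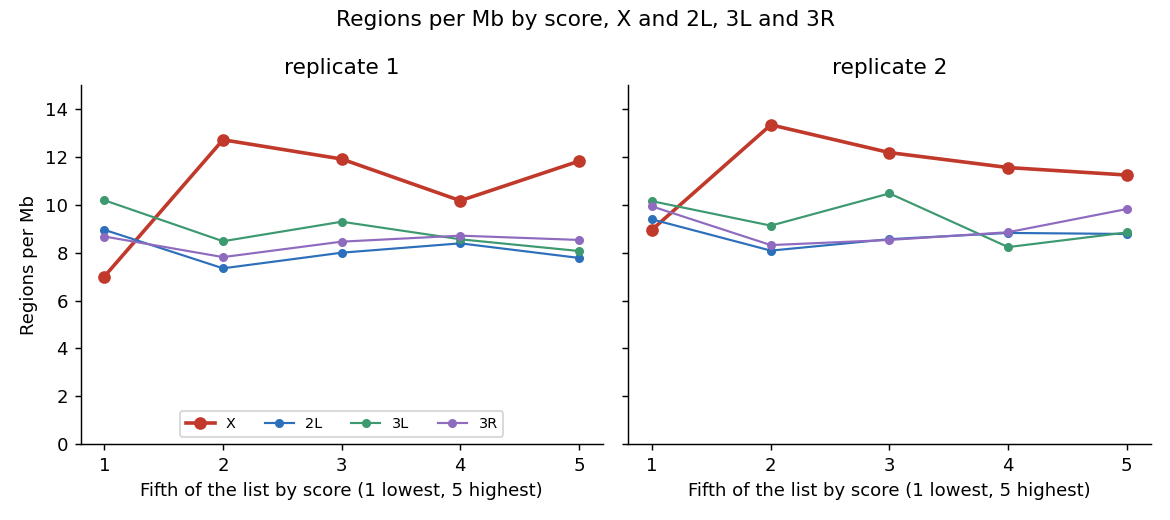
Regions per Mb on X, 2L, 3L and 3R in each of 5 equal classes of the list by score, weakest first, for replicates 1 and 2. X lies below the 3 arms in class 1 (7.00 per Mb in replicate 1 and 8.96 in replicate 2) and above them in the other 4.

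Of the 100 highest-scoring regions, X had 27 in replicate 1, 23 in replicate 2 and 26 in the combined list, beside 21.5% to 21.6% of all regions. On 3R the counts were 23, 26 and 21 in the same order, so 3R lay above X in replicate 2. On 2L and 3L they ran from 12 to 15. The counts do not allow for arm length, which is 22.4 Mb for X and 27.9 Mb for 3R. In the highest-scoring 10% of each list the excess was not present in all lists. Of X regions, 10.57% belonged to it in replicate 1, 9.58% in replicate 2 and 9.78% in the combined list. The share on 3R was higher in each list, at 10.62%, 11.3% and 11.4%. That on 2L was higher than on X in replicate 2 and the combined list, and that on 3L was lower in each list. The highest score of the combined list and of replicate 2 lay on X.

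That region, at 5222148 to 5225218, was 3071 bp wide and scored 4.33. Its counterpart in replicate 1 scored 4.10 and ranked 2 over all sequences. In replicate 2 it lay over 2 regions, the stronger of which scored 4.59 and ranked 1. Another combined region began 5 bp to its right, and 11 other regions had their centres within 50 kb of it, against a median of 8 for all X regions. The second region, at 1772448 to 1775948, scored 3.99 in the combined list, 3.83 in replicate 1 and 4.17 in replicate 2. It lay in a crowded place, with 15 other regions within 50 kb and a neighbour 209 bp to its left.

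The other 8 of the 10 highest-scoring X regions that overlapped both replicates scored between 3.63 and 3.89. The region at 5930160 to 5933006 scored 3.89 in the combined list, 3.60 in replicate 1 and 3.53 in replicate 2. Its rank was 32 in replicate 1 and 149 in replicate 2, the largest gap among the 10, and its counterpart in replicate 2 was 4444 bp wide against 2780 bp in replicate 1. The region at 2596772 to 2599732 scored 3.84, with 3.90 in replicate 1 and 3.82 in replicate 2. These 2 regions were the only ones of the 10 that scored higher in replicate 1 than in replicate 2.

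Next in the combined list were 17994174 to 17997166 with 3.75, 18550128 to 18552940 with 3.73 and 7794242 to 7796980 with 3.70. The last 3 were 19556050 to 19563784 and 14977630 to 14981488, each with 3.63, and 17595648 to 17598530, also with 3.63. The region at 19556050 to 19563784 was unlike the rest in width, at 7735 bp, and was found whole as 7658 bp in replicate 1 and 7761 bp in replicate 2. The other 9 measured 2739 to 3859 bp. The region at 18550128 to 18552940 stood at the edge of a long gap, with no combined region for 114973 bp to its right. Over all sequences, the lowest rank of the 10 was 88 in replicate 1 and 149 in replicate 2. The genes at these places were not analysed here.

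Most X regions were found in both replicates, at a share close to that of the whole list. Of the 1202 X regions of replicate 1, 1081 (89.9%, exact Clopper-Pearson 95% interval 88.1 to 91.6) shared at least 1 bp with a region of replicate 2, against 90.4% over all sequences and 91.3% on the 3 arms. Of the 1284 of replicate 2, 1060 (82.6%, 80.4 to 84.6) shared at least 1 bp with a region of replicate 1, against 83.7% over all sequences and 84.4% on the arms. The replicates shared 2.90 Mb of X, 0.74 of all bases that either of them covered there, against 0.76 on the arms. X was the lowest of the 4 arms in this index, though 3L, at 0.75, lay close to it. The order of X and the 3 arms turned when only the upper 50% of each list was kept, with an index of 0.761 on X and 0.749 on the arms. The same held for the share of replicate 2 regions, at 87.3% on X and 84.5% on the arms, but not for that of replicate 1, at 90.6% on X and 91.6% on the arms. The intervals cover counting error over regions only.

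Of the 1482 combined X regions, 1044 (70.4%, 95% interval 68.0 to 72.8) overlapped a region of both replicates, against 71.1% over all sequences and 72.8% on the 3 arms. In the upper 50% of the lists the share was 74.6% on X and 73.2% on the arms. Another 208 (14.0%) overlapped replicate 2 alone, 102 (6.88%) replicate 1 alone and 128 (8.64%) neither. Over all sequences these shares were 13.2%, 6.34% and 9.32%, close to those on X. The X regions in both had a median width of 2624 bp and a median score of 1.27. They held 81.9% of the bases in X regions, against 82.0% over all sequences. Of the combined regions, 996 lay over 1 region of each replicate, and 48 over 2 or 3 regions of a replicate.

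At low scores X regions were shared by the replicates to a smaller extent than autosomal regions of like score. The X regions of the combined list were divided by score into 4 groups of about equal size, and the same score limits were used on the arms. In group 2, from 0.40 to 0.82, 244 of 370 X regions (65.9%, 95% interval 60.9 to 70.8) overlapped both replicates, against 644 of 782 (82.4%, 79.5 to 85.0) on the arms. The 3 arms had 82.0% on 2L, 81.3% on 3L and 83.7% on 3R, a narrow range that X lay outside. In group 1, the weakest, the shares were 18.6% (14.8 to 22.9) on X and 25.9% (23.4 to 28.4) on the arms. The exact permutation test over the arms gave p = 0.25 for both groups, the smallest it can give. In group 3, 97.6% on X and 98.7% on the arms overlapped both (exact permutation p = 0.5), and in group 4, 99.7% on X and 99.2% on the arms (p = 0.75, same exact test).

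Regions of 1 replicate that had no counterpart in the other also scored higher on X. Their median score was 0.54 on X and 0.43 on the 3 arms in replicate 1, and 0.46 on X and 0.36 on the arms in replicate 2. Their median widths were 1733 bp on X and 1673 bp on the arms in replicate 1, and 1864 bp on X and 1875 bp on the arms in replicate 2. X thus had the higher median score in both replicates, whereas in width it lay above the arms in replicate 1 and below them in replicate 2. The medians of the single arms ran from 0.41 to 0.45 in replicate 1 and from 0.36 to 0.37 in replicate 2, all below X. Regions with a counterpart also had a higher median score on X than on the 3 arms together. It was 1.14 against 1.04 in replicate 1 and 1.42 against 1.37 in replicate 2. In replicate 2, however, 3R at 1.420 lay slightly above X at 1.418. These medians were not tested.

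Where both replicates listed a region once, its place was closely shared. On X there were 1006 such pairs. Their starts differed by a median of 73 bp and their ends by 71 bp, against 61 bp and 60 bp on the 3 arms, and both ends lay within 100 bp of each other in 41.2% of pairs on X and 47.7% on the arms. The share was 46.9% on 2L, 47.9% on 3L and 48.0% on 3R. Scores of the paired regions followed each other on X (Pearson r = 0.92, Spearman rho = 0.90, n = 1006 regions of the same 2 libraries). They were higher in replicate 2 for 744 of the 1006 pairs, by a median of 0.24, against 0.28 on the arms.

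A few combined X regions had substantial scores and no counterpart in either replicate, as did some on the 3 arms. In score group 3, 6 of 370 X regions overlapped neither, against 7 of 953 on the arms. In group 4 it was 1 of 371 on X and 5 of 956 on the arms. Regions in neither made up 8.64% of X regions and 9.32% of those over all sequences. Their median width was 1243 bp both on X and on the arms. Of the 128 X regions in neither, 71 were narrower than 1301 bp, the least width in the replicate lists. The 3 highest-scoring of the 128 were all of this kind. The first, at 6849352 to 6850356, was 1005 bp wide and scored 2.26, which ranked 214 among the 1482 X regions. Its nearest combined neighbours lay 78221 bp to its left and 11465 bp to its right. The second, at 6229112 to 6230156, scored 1.15 and the third, at 16234438 to 16235584, scored 1.05. How the authors made the combined list from the replicates is not stated in the sources at hand.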

How the data were processed

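HP1c ChIP-seq regions of 2 ChIP libraries were analysed. The 2 input libraries share their replicate numbers, and no list of them was analysed here. The deposited lists hold 1 score per region, the authors' own value, and the sources used here give neither its scale nor the region caller and threshold. Each replicate list belongs to 1 library, and the combined list to the set of replicates. Reads were aligned with Bowtie 0.12.7, per the submitters' processing notes, and the build is FlyBase release 5, per the file headers. Nothing states that the replicates were separate collections of larvae, so SDs may be technical. Since depth is unknown, no floor was computed.

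Rows named as depleted were left out. Overlap required 1 bp. Coverage was the percent of an arm's full length inside regions. Scores were compared within a list. Medians, percentiles and ratios were computed per replicate. X was compared with 2L, 3L and 3R by exact permutation over the 4 arms, two-sided. Regions and windows of 1 arm are not independent and were not tested. A last window under 10% of the window length was left out. The gene table at hand was of another release and was not used for positions, so no gene or sequence is given. The overlap and coverage steps were tested on simulated lists. Python 3.11, numpy 2.4.6, pandas 2.3.3 and scipy 1.17.1 were used.

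The regions and tests were chosen with earlier results of these data known. Regions named in the text are the 10 highest-scoring and 5 widest combined X regions overlapping both replicates, the 3 highest-scoring overlapping neither, the 5 longest empty stretches, the 3 highest and 3 lowest windows of 1 Mb and the 3 fullest of 100 kb. Other windows named beside them, and the analyses by width class, score class, score percentile, arm end and region pair, were chosen after seeing the data. Alternatives were a reciprocal overlap of 50%, lists reduced to their higher-scoring 50%, merging of regions under 500 bp apart, either replicate alone, the combined list, each arm alone and other window lengths.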

Additional observations from a re-analysis of the deposited data

How the results depend on the processing

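The ratios of X to the 3 autosomal arms in coverage, regions per Mb, mean width and median score kept their direction in all 32 values computed under an alternative. Coverage ranged from 1.29 to 1.43, regions per Mb from 1.21 to 1.32, mean width from 1.03 to 1.08 and median score from 1.00 to 1.09. The exact permutation p was 0.25 for the first 3 ratios and 0.25 to 0.75 for the score in each alternative that kept all 3 arms. Leaving out either replicate gave 1.33 for coverage, 1.26 for regions per Mb, 1.05 to 1.06 for mean width and 1.03 to 1.09 for median score. Wide regions per Mb ranged from 1.81 to 2.75. The 10th percentile ratio turned to 0.99 in the upper 50% of the scores, where the weak regions are removed by construction. That of the 90th percentile, 1.00 over both replicates, was 0.98 without replicate 1, 1.01 without replicate 2, and above 1 against 3L alone (1.02), and the cause was not tested. A reciprocal overlap of 50% lowered the X shares to 67.9% for combined regions in both replicates, 85.2% for replicate 1 and 79.8% for replicate 2, as a stricter rule must. The upper 50% gave 74.6% on X and 73.2% on the arms for combined regions, 87.3% on X and 84.5% on the arms for replicate 2, and a Jaccard index of 0.761 on X and 0.749 on the arms. X was below the arms in all 3 with the full lists, so these orders turned, and the cause was not tested. Merging gave a Jaccard index of 0.745 on X, against 0.744 without merging. The highest window of X had 27.4% in 0.5 Mb windows, 19.1% in 2 Mb windows (at 16 to 18 Mb), 15.4% in the upper 50% (at 6 to 7 Mb), and 21.8% to 22.6% without either replicate. The median distance on X was 9407 bp in the upper 50%, 5500 bp in replicate 1 and 4833 bp in replicate 2, as fewer regions must give, and stayed at 0.66 to 0.72 of that on the arms. The Jaccard index has no reciprocal form, so that alternative gave no value. No paired analysis was possible because the input libraries, which share the replicate numbers, have no list among those analysed. Read depth is unknown, so what it limits cannot be given.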
